A study of Mus musculus with 248 samples.

Results

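Squalene epoxidase (Sqle) and ATP citrate lyase (Acly) are 2 of the 16203 genes that the authors' test of single hematopoietic stem cells (HSCs) covered. They were picked by symbol from the authors' tables of genes that differ by mitochondrial membrane potential (MMP, low or high) and between the cell clusters A to E. Both had already been listed there, so those folds, detection shares and p-values describe the pair and are no independent test of it. The cells came from C57Bl6 mice. They were sorted as negative for lineage markers, positive for Sca1, cKit and CD150 and negative for CD48, which is how long-term HSCs are commonly isolated, and by low or high MMP. The MMP-low group held 122 libraries and the MMP-high group 126, each from 1 cell caught on a Fluidigm C1 chip. No treatment, genotype, age, animal or sort is named for either group, so each group counts as 1 sample and no difference between the groups has a replicate check.

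Sterols and fatty acids are both built from acetyl-CoA. Mitochondria export citrate, Acly splits it in the cytosol into acetyl-CoA and oxaloacetate, and the acetyl-CoA then enters either the mevalonate pathway, which leads to cholesterol, or the synthesis of fatty acids. The same acetyl-CoA also serves the acetylation of proteins, histones among them. Sqle acts later in the mevalonate branch: it adds oxygen to squalene in the membrane of the endoplasmic reticulum, a step that commits the chain to sterols. Genes of both branches are textbook targets of the sterol-regulated SREBP transcription factors, and dividing cells need both products for new membrane. The potential across the inner mitochondrial membrane is built by the respiratory chain, whose fuel also passes through acetyl-CoA and citrate.

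In the GENCODE annotation of the mouse genome build GRCm38, the same assembly as mm10, Sqle (ENSMUSG00000022351.14) is a protein-coding gene on the plus strand of chromosome 15, from 59315077 to 59331192. Acly (ENSMUSG00000020917.17) is protein-coding as well and lies on the minus strand of chromosome 11, from 100476353 to 100528000. The stretch of 250 bases before the start site of Acly is shown because the authors listed this gene among the targets of several promoter-binding factors. It is given 5′ to 3′ on the strand of the gene, from the RefSeq promoter table of build GRCm38.p6, at chr11:100528001-100528250 (minus strand), with each GC box in capitals. Sqle had no entry in that table.

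Acly promoter: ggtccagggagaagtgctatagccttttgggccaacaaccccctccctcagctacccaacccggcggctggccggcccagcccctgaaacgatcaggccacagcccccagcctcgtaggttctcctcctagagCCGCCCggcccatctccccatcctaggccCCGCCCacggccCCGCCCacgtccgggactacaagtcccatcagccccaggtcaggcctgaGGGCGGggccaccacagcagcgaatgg

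The GC box, searched as GGGCGG on both strands, occurred 4 times in this stretch, of which the 3 nearest to the gene begin 88, 76 and 27 bases before the start site, and 32.7% of 32851 promoter stretches of this length held at least 1. Its share of G and C was 68.8%, against a median of 52.4% over all of them. The CCAAT box, to which NF-Y binds, was searched as CCAAT on both strands and did not occur in the 250 bases. It occurred 1 time when the 50 bases after the start site were added, and 37.4% of windows of that longer size held it. The E-box CACGTG, to which MYC with MAX binds, was absent from the longer Acly window and present in 7.15% of all such windows. The CREB core site TGACG was absent too, with 20.8% of windows holding it, and so was the full site TGACGTCA, which contains the core and was found in 1.79%. These are matches of letters in 1 window and do not show where a factor binds.

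Sqle transcripts were found in most MMP-high cells and in a minority of MMP-low cells. The authors' deposited table had Sqle in 92.4% of MMP-high cells against 21% of MMP-low cells, a gap of 71.4 percentage points and a ratio of 4.4. The average log fold change was 0.35 in favour of MMP-high by the authors' deposited table, on a log scale whose base is not stated, with an adjusted p of 2.58e-16 from the authors' MAST model. That model works on single cells, so its p-values do not measure a spread between animals, and no source used here gives the level at which a gene counted as detected. That gap ranked 4 among the 919 genes that the authors' deposited table listed as higher in MMP-high, while the fold ranked 359. Sqle thus stood near the top of that side by the gap between the groups and not far above the middle by fold. Its 92.4% of MMP-high cells was below the median gene of that side, at 96.6%, and its 21% of MMP-low cells was below the median of 75.2% by the authors' deposited table.

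Acly moved the same way with a smaller gap and a larger fold. It was detected in 84.0% of MMP-high cells against 34.3% of MMP-low cells by the authors' deposited table, a gap of 49.7 percentage points and a ratio of 2.45. Its average log fold change there was 0.41 in favour of MMP-high and its adjusted p was 1.55e-09, again from the authors' deposited table and MAST model. By fold it ranked 198 and by gap 192 of the 919 genes by the authors' deposited table. The median gene on that side had a log fold change of 0.33 and a gap of 18.5 percentage points by the authors' deposited table, so both enzymes were above the median by either measure. Genes with an adjusted p under 0.05 on the MMP-high side made up 3.69% of the 16203 genes tested, and both enzymes were among them because they had been chosen from this contrast.

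**Figure D1:**
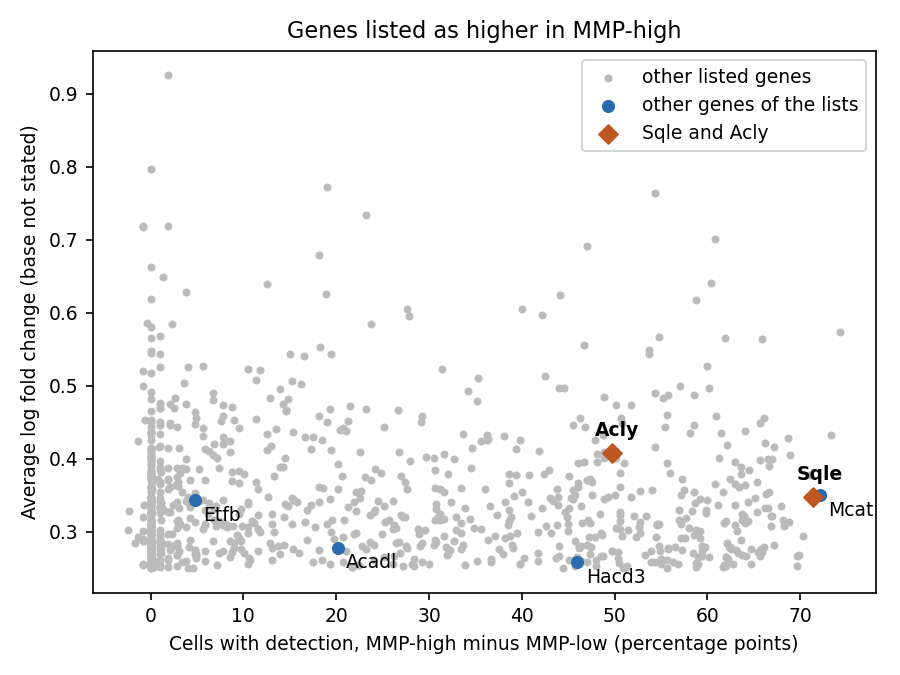
Each point is 1 of the 919 genes that the authors listed as higher in MMP-high, with the gap in percent of cells with detection (MMP-high minus MMP-low, percentage points) on the horizontal axis and the average log fold change (base not stated) on the vertical axis. Sqle lies far to the right at 71.4 points with a fold of 0.35, next to Mcat at 72.1, while Acly lies at 49.7 points with a fold of 0.41.

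The shares set limits on how many cells had both enzymes detected. Sqle was detected in 92.4% and Acly in 84.0% of MMP-high cells by the authors' deposited table. At least 76.4% of these cells must therefore have had both detected. In MMP-low cells no more than 21% can have had both detected, the share of Sqle itself by the authors' deposited table. A transcript that was not detected may still have been present, so these are limits on detection alone. These limits follow from the rounded shares alone, and the number of cells behind each share is not given. No whole number of 126 MMP-high cells gives 92.4%, and none of 122 MMP-low cells gives the 34.3% of Acly. The shares therefore do not rest on all libraries of either group.

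Other readings of the libraries moved with the MMP groups. The median number of genes detected per library was 3795.5 in MMP-high (1130 to 5200) and 2316.5 in MMP-low (514 to 3674). Libraries numbered up to 85 in their titles had medians of 4080 and 2500, whereas above 85 the order turned, with 1905 in MMP-high and 2083 in MMP-low. MMP-high libraries had a median of 568088.5 mapped reads against 508337.5 for MMP-low libraries, and the median expression profiling efficiency, a share of reads given by the quality table, was 31.3% and 18.3%. Up to number 85 the mapped reads were 1035705 and 472174 and the efficiency 58.5% and 24.5%, while above 85 they were 454512 and 564476, and 13.7% and 14.6%. Total reads per library ran from 678723 to 5074155. These readings were taken from all libraries, while the detection shares rest on a different number of cells. The part of these differences in the gaps of Sqle and Acly was not tested, because the tables hold no expression value per cell. Among the markers used as a check, 5 of 12 HSC genes stood on the MMP-low and 1 on the MMP-high side of the authors' deposited table, and the listed ones were detected in 76.2% to 100% of MMP-low and in 28.6% to 100% of MMP-high cells. Granulocyte genes were listed for MMP-low in 8 of 10 cases and lymphoid genes in 5 of 7. Of them, 1 and 4 were at 0% of MMP-high cells by the authors' deposited table. On this side were 2 of 7 erythroid genes too. The listed granulocyte, lymphoid and erythroid genes were detected in 70.5% to 100%, 61% to 97.1% and 59% to 71.4% of MMP-low cells. In MMP-high cells these ranges were 0% to 100%, 0% to 96.6% and 25.2% to 58.8% by the authors' deposited table. On the MMP-low side 4 of the 5 HSC, 8 of the 8 granulocyte, 4 of the 5 lymphoid and 1 of the 2 erythroid genes had an adjusted p under 0.05, and the HSC gene on the MMP-high side did not. Of 8 G2/M genes, 4 were listed as higher in MMP-high, detected in 90.8% to 99.2% of those cells and in 45.7% to 85.7% of MMP-low cells by the authors' deposited table, on the same side as both enzymes. Of these 4, Cdk1 and Ccnb2 had an adjusted p under 0.05, and Top2a and Mki67 had 1. Of all genes tested, 5.86% were listed for MMP-low and 5.67% for MMP-high, and 3.33% and 3.69% had an adjusted p under 0.05. The part of these markers in the result was not tested.

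**Figure D2:**
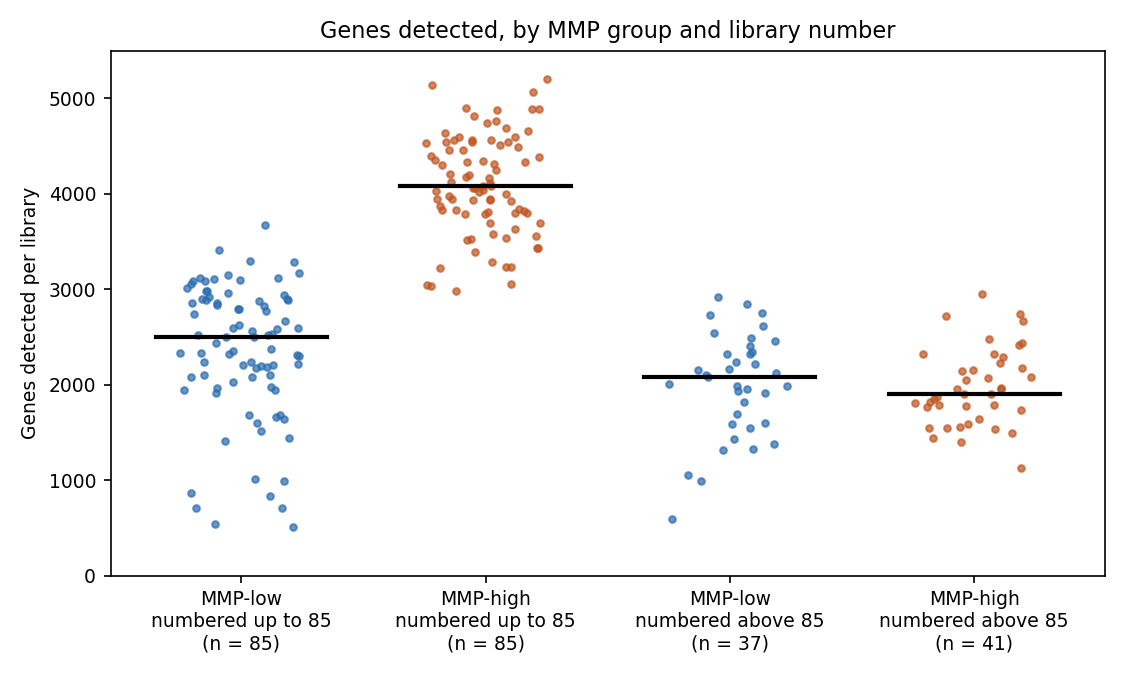
Each point is 1 library, with the number of genes detected on the vertical axis, and black lines are medians. Libraries are split by MMP group and by the number in their title: up to 85 the medians are 2500 (MMP-low) and 4080 (MMP-high), and above 85 they are 2083 and 1905.

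Within its own pathway Sqle stood on the other side from the 4 remaining listed genes, of which 1 passed the authors' test. Of 21 genes from the mevalonate pathway to cholesterol, the authors' deposited table put 1, Sqle, on the MMP-high side and 4 on the MMP-low side. As shares of the list these are 4.76% and 19%, beside 5.67% and 5.86% of all genes tested that were listed for the respective side. At an adjusted p below 0.05, 1 gene remained on each side of the authors' deposited table, Sqle and Nsdhl, and 3.33% of all genes passed on the MMP-low side. The sequence of steps runs through Idi1 and Sqle to Lbr, Nsdhl and Sc5d.

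Idi1, which makes the second of the paired isoprene units from the first, was detected in 99% of MMP-low cells against 99.2% of MMP-high cells by the authors' deposited table, with a log fold change of 0.32 in favour of MMP-low and an adjusted p of 0.348. It acts before Sqle and did not have a gap like that of Sqle.

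Past Sqle, Lbr, a sterol reductase that also tethers chromatin at the nuclear envelope, was detected in 94.3% of MMP-low cells against 92.4% of MMP-high cells by the authors' deposited table (adjusted p of 1). Nsdhl, which helps to remove methyl groups from the sterol ring, was found in 78.1% of MMP-low cells against 67.2% of MMP-high cells by the authors' deposited table, with a log fold change of 0.36 in favour of MMP-low and an adjusted p of 0.0344. Sc5d, a desaturase of the last steps, was detected in 90.5% and 83.2% by the authors' deposited table, with a log fold change of 0.37 in favour of MMP-low and an adjusted p of 0.223. All 4 of these genes were found in at least 67.2% of the cells of either group, so the share of 21% for Sqle in MMP-low cells stood apart from theirs in this table.

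**Figure D3:**
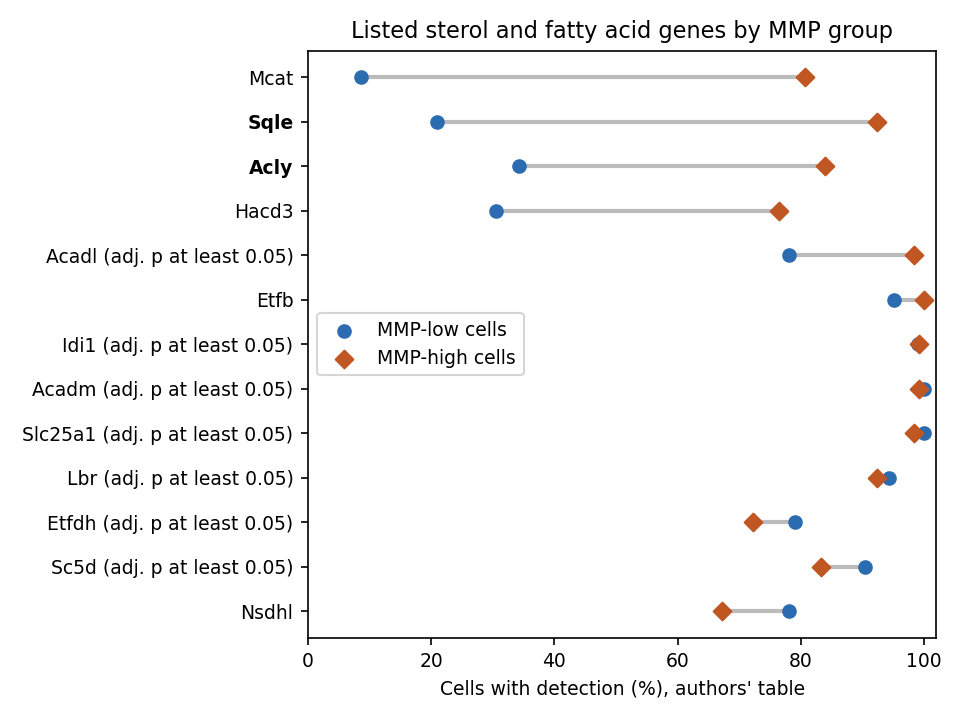
For each listed gene of the sterol and fatty acid lists, the circle gives the percent of MMP-low cells and the diamond the percent of MMP-high cells with detection, as the authors deposited them; genes that did not pass an adjusted p of 0.05 are marked. Sqle (21% against 92.4%), Mcat (8.6% against 80.7%), Acly (34.3% against 84.0%) and Hacd3 (30.5% against 76.5%) have long lines, and the remaining genes are within about 20.2 points.

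Among the genes of acetyl-CoA supply and fatty acid synthesis, Mcat and Hacd3 were listed on the side of Acly. Of 21 such genes, the authors' deposited table put 3 on the MMP-high side, Acly included, and 1 on the MMP-low side. Without Acly, which was chosen for being listed there, 2 of 20 stood on the MMP-high and 1 on the MMP-low side, beside 5.67% and 5.86% of all genes tested. Of the 20, 2 (10%) stood on the MMP-high side with an adjusted p under 0.05, beside 3.69% of all genes tested. Of the 919 genes listed for that side, 598 passed. Mcat, which transfers malonyl groups in mitochondrial fatty acid synthesis, was detected in 80.7% of MMP-high cells against 8.60% of MMP-low cells by the authors' deposited table, with a log fold change of 0.35 and an adjusted p of 4.22e-19. Hacd3, a dehydratase of the elongation of long fatty acids, was detected in 76.5% and 30.5% by the authors' deposited table, with a log fold change of 0.26 and an adjusted p of 6.40e-06. Mcat and Sqle thus had gaps of 72.1 and 71.4 points, and Hacd3 and Acly of 46 and 49.7.

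Slc25a1, the carrier that exports the citrate used by Acly, was found in nearly all cells, 100% of MMP-low and 98.3% of MMP-high by the authors' deposited table. Its log fold change of 0.26 was in favour of MMP-low, with an adjusted p of 1 by the authors' deposited table. The carrier and the enzyme it feeds were therefore listed for opposite sides, of which the side of Acly passed the authors' test and that of Slc25a1 did not. Acaca and Fasn, which turn acetyl-CoA into malonyl-CoA and then into palmitate, were not listed for either group.

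Of 30 genes of fatty acid activation and mitochondrial oxidation, 2 were listed on each side by the authors' deposited table, and 1 of these, Etfb, had an adjusted p under 0.05. On each side this is 6.67% of the list, beside 5.67% of all genes tested for MMP-high and 5.86% for MMP-low. Etfb, a subunit of the flavoprotein that takes electrons from the oxidation of fatty acids, had a log fold change of 0.34 in favour of MMP-high and was detected in 100% of MMP-high cells against 95.2% of MMP-low cells by the authors' deposited table. Acadl, an acyl-CoA dehydrogenase, had 0.28 on the same side with an adjusted p of 1 by the authors' deposited table. Acadm, another such dehydrogenase, and Etfdh, which passes the electrons on to ubiquinone, had 0.28 and 0.26 in favour of MMP-low, both with an adjusted p of 1 by the authors' deposited table. None of the 21 genes of sterol sensing, uptake, transport and efflux was listed for either group; the SREBP genes Srebf1 and Srebf2 are among them. Over the 4 lists, 6 of 93 genes stood on the MMP-high side and 7 on the MMP-low side by the authors' deposited table, 6.45% and 7.53% of the lists. Without Sqle and Acly 4 of 91 (4.40%) and 7 of 91 (7.69%) were left, beside the same 5.67% and 5.86% of all genes tested. Of the 91, 3 passed an adjusted p of 0.05 on the MMP-high side and 1 on the MMP-low side. Of all genes tested, 3.69% and 3.33% did. These pooled counts do not set the lists apart from all genes. Since the table holds no fold under 0.25, a median over listed genes of both sides would follow from these counts and is not given.

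Across the authors' clusters both enzymes were listed for cluster D, and Acly for cluster E as well. Sqle was detected in 98% of cluster D cells and in 47.4% of the other cells by the authors' deposited table, with a log fold change of 0.28 and an adjusted p of 2.28e-06. Acly was detected in 100% of cluster D cells and in 49.1% of the others, with a log fold change of 0.41 and an adjusted p of 1.87e-05 by the authors' deposited table. In cluster E the share for Acly was again 100%, against 54.2% outside, with a log fold change of 0.33 and an adjusted p of 0.0283 by the authors' deposited table. Neither gene was listed for clusters A, B or C. Listing for cluster D was reached by 3.23% and listing for cluster E by 2.80% of all genes tested, and the clusters were formed from expression of the same cells, so these values are a description.

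In cluster D the gaps of Sqle and Acly were nearly equal, 50.6 and 50.9 percentage points, unlike the 71.4 and 49.7 points between the MMP groups. By fold Acly ranked 99 and Sqle 386 of the 524 genes listed for cluster D by the authors' deposited table. The median log fold change there was 0.31, above the 0.28 of Sqle. By gap Acly ranked 178 and Sqle 180, with a median gap of 39.6 points. The place of Sqle near the top by gap between the MMP groups thus did not recur in cluster D. In cluster E Acly ranked 158 of 454 by fold. Detection in every cell was common there: 84.4% of the genes listed for cluster E and 46.4% of those for cluster D were found in 100% of the cluster's cells by the authors' deposited table. Of the 8 G2/M markers 3 were listed for cluster D and 1 for cluster E, beside 3.23% and 2.80% of all genes tested. The part of cell division in these values was not tested. For either cluster 0 of the HSC, granulocyte, lymphoid and erythroid markers were listed, which says little for lists this short. From the shares, both enzymes were detected together in at least 98% of cluster D cells and in no more than 47.4% of the other cells.

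Mcat and Hacd3 were listed for cluster D as well. Of the 93 genes of the 4 lists, 7 were listed for cluster D, 7.53% of the lists, 6 of which passed an adjusted p of 0.05 by the authors' deposited table. Sqle and Acly, which were chosen from this listing, are among them, and without the pair 5 of 91 were listed and 4 passed. Mcat and Hacd3 were each detected in 100% of cluster D cells and in 31.2% and 41.6% of the others by the authors' deposited table. Ggps1, which makes the geranylgeranyl groups that branch off before Sqle, was detected in 98% against 53.2%, with an adjusted p of 0.00332 by the authors' deposited table. Osbp, which carries sterols between the endoplasmic reticulum and the Golgi, was detected in 100% against 60.7% there, with an adjusted p of 8.51e-05 by the authors' deposited table. Hadhb, a subunit of the mitochondrial trifunctional enzyme, was listed for cluster D too, but with an adjusted p of 1 by the authors' deposited table. Listing for cluster D at an adjusted p under 0.05 was reached by 1.86% of all genes tested.

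Lbr and Sc5d were listed for cluster A by the authors' deposited table, with log fold changes of 0.46 and 0.33 and adjusted p-values of 5.62e-05 and 0.0142. Over the 4 lists 4 genes were listed for cluster A and 4 for cluster B, of which 3 and 1 passed an adjusted p of 0.05; among all genes tested 5.27% and 4.16% were listed for these clusters and 4.05% and 1.64% passed. Nsdhl was listed for cluster B, at 0.45 with an adjusted p of 0.394 by the authors' deposited table. Cluster C held none of the 21 genes of cholesterol synthesis and none of the 21 of fatty acid synthesis, but 5 of the 30 of fatty acid oxidation. Over the 4 lists it held 7 genes, 3 of them past an adjusted p of 0.05, beside 5.12% of all genes tested that were listed for it and 3.07% that passed. Among these, Slc25a20, the carnitine carrier that brings fatty acids into mitochondria, was detected in 82.4% of cluster C cells and 43.6% of the others, with an adjusted p of 1.23e-08 by the authors' deposited table, and Acadm also passed, at 0.00246. Acadl, Acsl4 and Echs1, the other oxidation genes listed for cluster C, did not pass. Echs1 was detected in 98.5% of cluster C cells and in 100% of the others.

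In cluster C the authors' deposited table also listed Nr1h2, a nuclear receptor for oxidised sterols, at 0.28 with an adjusted p of 0.0116. Abca1, which exports cholesterol, had 0.37 there with an adjusted p of 1 by the authors' deposited table. In cluster E the authors' deposited table listed, beside Acly, the mitochondrial acetyl-CoA synthetase Acss1, detected in 100% against 50% with a log fold change of 0.40 and an adjusted p of 0.00759. Acss1 and Acly both make acetyl-CoA, from acetate and from citrate. The fatty acid genes Elovl5 and Hsd17b12 and the fatty acid activating gene Acsl5 were listed for cluster E with an adjusted p of 1 by the authors' deposited table. Over the 4 lists 5 genes were listed for cluster E, and 2 of them, Acly and Acss1, passed an adjusted p of 0.05. Without the pair, 4 of 91 genes (4.40%) were listed and 1 passed, beside 2.80% and 1.12% of all genes tested. In cluster B the authors' deposited table held Etfdh, which was also listed for cluster A and passed in both (adjusted p of 0.000229 and 4.59e-07), and Acaca and Decr1, each with an adjusted p of 1.

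**Figure D4:**
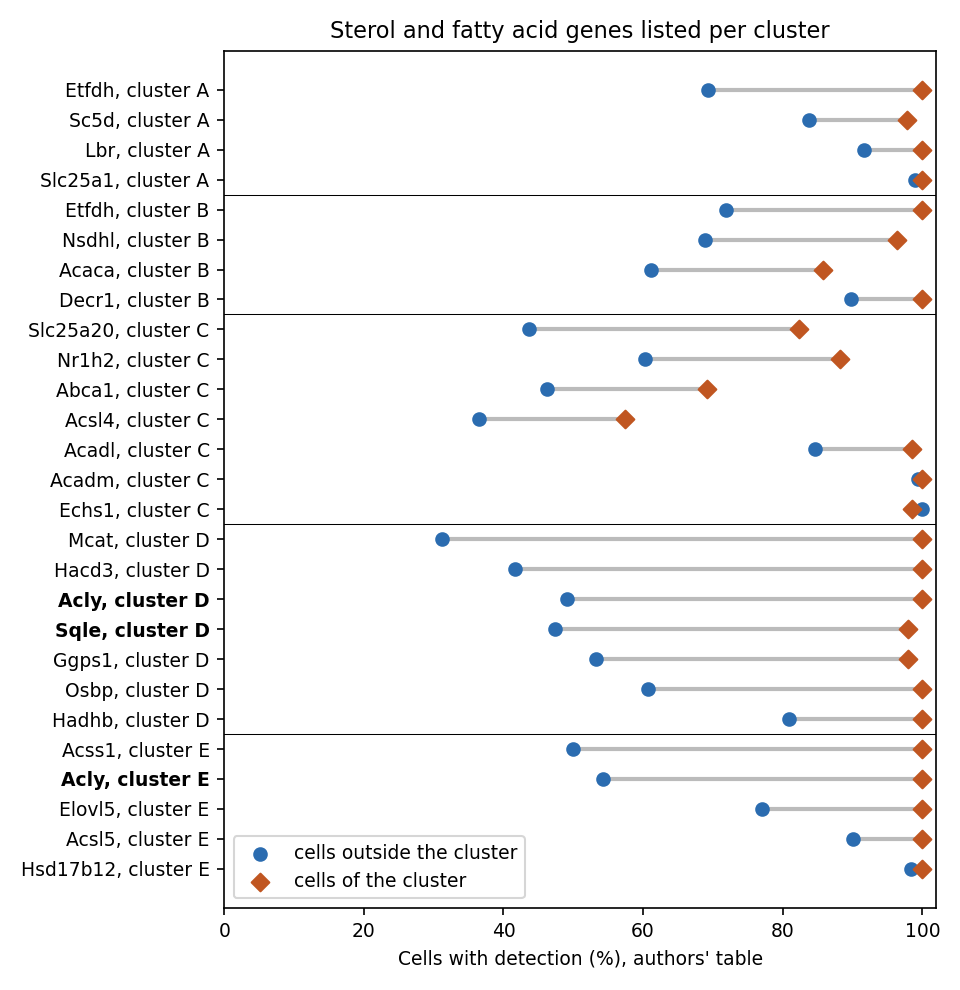
For each sterol or fatty acid gene and each cluster that listed it, the diamond gives the percent of the cluster's cells and the circle the percent of all other cells with detection, as deposited by the authors; horizontal lines part the clusters A to E from top to bottom. In cluster D, Sqle goes from 47.4% to 98% and Acly from 49.1% to 100%, and in cluster E Acly goes from 54.2% to 100%.

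The genes nearest to each enzyme were taken as the 5 on the MMP-high side with the smallest Euclidean distance in the pair of shares, MMP-low and MMP-high. For Sqle these were Gemin2, Ppif, Gtf2h4, Thoc6 and Rnf123, at distances of 2.19 to 5.87 percentage points. Gemin2, a part of the complex that assembles splicing particles, was the nearest, with 93.3% of MMP-high cells against 19% of MMP-low cells by the authors' deposited table. Ppif, the mitochondrial cyclophilin that regulates the permeability transition pore, was detected in 89.9% and 22.9% by the authors' deposited table. For Acly they were Usp4, Traf7, Stxbp4, Ubqln2 and Bcat2, closer by at 0.900 to 2.06 points. Bcat2, the mitochondrial enzyme that starts the breakdown of branched-chain amino acids, was detected in 83.2% of MMP-high cells against 36.2% of MMP-low cells by the authors' deposited table.

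The same measure inside the clusters, with the 3 nearest genes each, gave Ccdc117, Ecd and Gemin2 for Sqle in cluster D, so that Gemin2 was among the nearest in both tables. For Acly it gave Hibch, Pola2 and Stxbp4 in cluster D and Hibch, Reep4 and Pfkp in cluster E. Hibch, an enzyme of valine breakdown, had shares equal to those of Acly in both clusters by the authors' deposited table. Pfkp, a phosphofructokinase of glycolysis, was detected in 100% of cluster E cells and 54.7% of the others by the authors' deposited table. Each likeness rests on 1 pair of shares and on cells that the comparisons have in common.

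The authors' deposited table of transcription factor targets held 21 terms for the genes higher in MMP-high, and the enzymes appeared in 6 of them between them. NFYB, a subunit of NF-Y, was the term that named both, with 281 of 3715 targets in the list and an adjusted p of 1.25e-18 by the authors' deposited table. Acly was also named under MYC (218 of 1515, adjusted p of 1.08e-53 by the authors' deposited table), NFYA (185 of 2250) and CREB1 (134 of 1444). Sqle was also named under MAX, the partner of MYC (248 of 2073, adjusted p of 9.18e-47 by the authors' deposited table), and under SIN3A. Sqle was not named under MYC nor Acly under MAX. These p-values belong to whole target lists and not to Sqle or Acly. NFYB, MAX and MYC named 281, 248 and 218 genes of the MMP-high side, on which 919 genes were listed. Being named under these terms does not set the pair apart from that side.

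Of the authors' other term tables, the GO terms for MMP-high named Acly in 1 of 61 terms, the lumen of ficolin-1-rich granules (adjusted p of 2.42e-05 by the authors' deposited table), and Sqle in none. For cluster D the authors' deposited table named Acly under ATP binding (11 of 243), with an adjusted p of 0.416. No term of sterol or fatty acid synthesis that held either enzyme was in these tables. Both genes were missing from the authors' list of 5624 highly variable genes, which held 33.6% of the genes listed as higher in MMP-high and 69.3% of those listed as higher in MMP-low. Of the 21 cholesterol synthesis genes, 11 (52.4%) were in that list, Idi1 and Nsdhl among them, and Mcat was in it as well. Over the 4 lists the share was 46.2%, and the 5624 genes are 34.7% of the number tested. Neither enzyme was among the 55 genes that the authors gave as higher in both MMP-high cells and aHSC, nor among the 99 given for MMP-low cells and dHSC, and 0 of the 93 list genes were. Lists of 55 and 99 genes are short beside the 16203 tested, so a count of 0 is no result about these genes.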

How the data were processed

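Single-cell libraries were made with the SMART-Seq v4 and Nextera XT kits on the Fluidigm C1 system, per the labels' protocols. Reads went through STAR 2.5.2b and bcl2fastq 2.17.1.14 with the build mm10, per the submitters' processing notes. The chemistry carries no molecular identifiers. The authors deposited counts of reads and of genes detected for each library. The intronic and intergenic rates and 4 other columns of that quality table were not used. Detection was deposited as a fraction of cells and turned into percent. The p-value and adjusted p-value of each gene are the authors', from MAST per the file headers. The adjusted p equals the p-value times 16203, taken as the number of genes tested. In the MMP table no gene had a log fold change under 0.25 or a p-value above 0.00999, so genes beyond these limits have no values. The log base, normalization, imputation and detection threshold are not stated there, and each could move folds and shares.

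Python 3.11.15 with pandas 2.3.3 computed shares, gaps, ranks (1 for the largest), distances and medians, and promoter letters were counted on both strands. The nearest-gene step was tested on simulated data. No new p-value was made, since each MMP group is 1 sample. Libraries are placed in groups by their titles and were also split at number 85, a number close to the lane size in the labels, whose link to a lane or chip is not stated. Named genes were the pair, every listed member of the 4 lists, and the nearest genes without predicted ones. The members, lists and tests were chosen with earlier results of these data known. A list of peroxisomal genes and some genes of the other lists are not reported here and are left out of all counts. Alternatives were an adjusted p under 0.05, a log fold change of at least 0.4, ranks without predicted genes, side by detection, and subsets of libraries.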

Additional observations from a re-analysis of the deposited data

How the results depend on the processing

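Sqle and Acly kept their MMP-high side when judged by detection (71.4 and 49.7 points) in place of fold. Because the pair was chosen from this same contrast, that is a description and no independent check. Fold ranks on that side were 351 and 195 without predicted genes, and 274 and 155 among genes with an adjusted p under 0.05, where fewer genes are ranked. With an adjusted p under 0.05, list genes higher in MMP-high numbered 5 in place of 6, and those higher in MMP-low 1 in place of 7. A log fold change of at least 0.4 left 1 on the MMP-high side, Acly, and 0 on the MMP-low side. By adjusted p the clusters A, B, C, D and E kept 3 of 4, 1 of 4, 3 of 7, 6 of 7 and 2 of 5. The difference in median genes detected, MMP-high minus MMP-low, was 1479 over all libraries, 1580 for those numbered up to 85, -178 above 85, and 618 at 300000 to 600000 mapped reads; the cause was not tested. No paired analysis was possible because no expression value per library was used, the p-values are those of the authors' MAST model, and the library numbers name cells. No depth per cell and gene is known, so the detection limits of Sqle and Acly cannot be given.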
